A study of Homo sapiens with 4 samples.

Results

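Zinc finger genes of the ZNF series that lie outside chromosome 19 were described in OMM2.3, a human uveal melanoma cell line that the labels call wild type (wt), after treatment for 24 h. One group received meclofenamic acid (MA), and the other DMSO as its control (NC). The members were selected on the authors' peak calls. They are the genes whose symbol is ZNF followed by digits only and that held an N6-methyladenosine (m6A) peak in at least 1 of both treatments' peak lists on a chromosome other than 19. This gave 186 of the 14416 genes in the expression table. The same name pattern matched 438 genes in all, of which 184 were on chromosome 19 with a peak and 68 had no peak. A peak was therefore a condition of membership, and the presence of peaks below is a description. All 186 members carry the words zinc finger in the table's own gene description.

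The study fragmented poly(A) RNA, sequenced part of it as input and enriched the rest with beads carrying an antibody to m6A (RIP), per the labels' protocols. Each treatment had 1 input library, which gives transcript levels in FPKM (fragments scaled to library size and transcript length), and 1 RIP library, which gives 1 list of peaks with its input. Both treatments used the same cell line, and the labels name no replicate culture. With 1 library per group no p-value, SD or standard error could be given, and every difference describes these libraries.

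C2H2 zinc finger proteins are the largest family of human transcription factors, and each finger contacts a few bases of DNA, or in some members RNA or protein. Many carry a KRAB domain, which binds the corepressor TRIM28 (KAP1), and TRIM28 brings the histone methyltransferase SETDB1 and heterochromatin proteins to sites such as transposable elements. The finger array is commonly encoded by a single long exon near the end of the gene, and long internal exons and the surroundings of stop codons are where m6A, written by METTL3 and METTL14, is known to be dense. Meclofenamic acid is an anti-inflammatory drug that also inhibits FTO, an m6A demethylase.

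Depth, worked out from the steps of the deposited FPKM values, came to 41630895 fragments or reads for the MA input and 37041597 for the NC input. Of the melanocyte lineage markers, 9 of 10 reached 1 FPKM in at least 1 input, and their summed level was 3263 FPKM in MA and 7523 FPKM in NC. Fibroblast markers reached 1 FPKM only through LUM and immune markers only through CD68, and no endothelial or epithelial marker did. In bulk RNA, fewer cells with a transcript and less of it per cell cannot be told apart. The part of these lower lineage markers in the differences given here was not tested.

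Transcripts of these genes were more often higher than lower with MA. Of the 186 members, 161 reached 1 FPKM in at least 1 input and were compared as log2((MA FPKM + 1)/(NC FPKM + 1)), a scale that understates the difference of low genes. By 2-fold or more, 25 members were higher with MA, which is 15.5%, where 10.3% of all 10564 genes compared in the same way were. By as much, 2 members were lower (1.24%), where 2.98% of all genes were. A difference above 0 was found in 109 members (67.7%), against 56.7% of all genes. The median log2 difference was 0.28 over the members and 0.11 over all genes. Every member had a peak, and of the 9223 compared genes with a peak 11.0% were higher and 2.81% lower by 2-fold. Above 0 were 58.6% of those 9223 genes, and their median was 0.14. The members lay between -1.17 and 1.76, with percentile 10 at -0.33 and percentile 90 at 1.09. After all differences were shifted by 0.11, which puts the median gene at 0, the members' median was 0.17. By 2-fold, 15 members were then higher (9.32%) and 2 lower (1.24%). The shares over all genes were then 7.16% higher and 4.16% lower.

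Most of these genes were expressed at a low level. The median level of the compared members was 5.45 FPKM in MA and 4.10 FPKM in NC, where all compared genes had medians of 10.4 and 8.84 FPKM. Of the 161, 25 were under 1 FPKM in NC and entered through the MA input alone, and none entered through the NC input alone, so that those 25 had to be above 0. Among the 136 members at 1 FPKM or more in both inputs, a filter chosen after the data were seen, 17 were higher by 2-fold (12.5%, against 9.9% of all 9884 genes so filtered) and 2 were lower (1.47%, against 2.87%). Above 0 were 84 (61.8%, against 55.3%). The median difference was 0.21, where all genes so filtered had a median of 0.09. In MA, 75 compared members lay between 1 and 5 FPKM, 72 between 5 and 20, and 14 at 20 FPKM or more. In NC the same ranges held 67, 59 and 10 members.

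**Figure D1:**
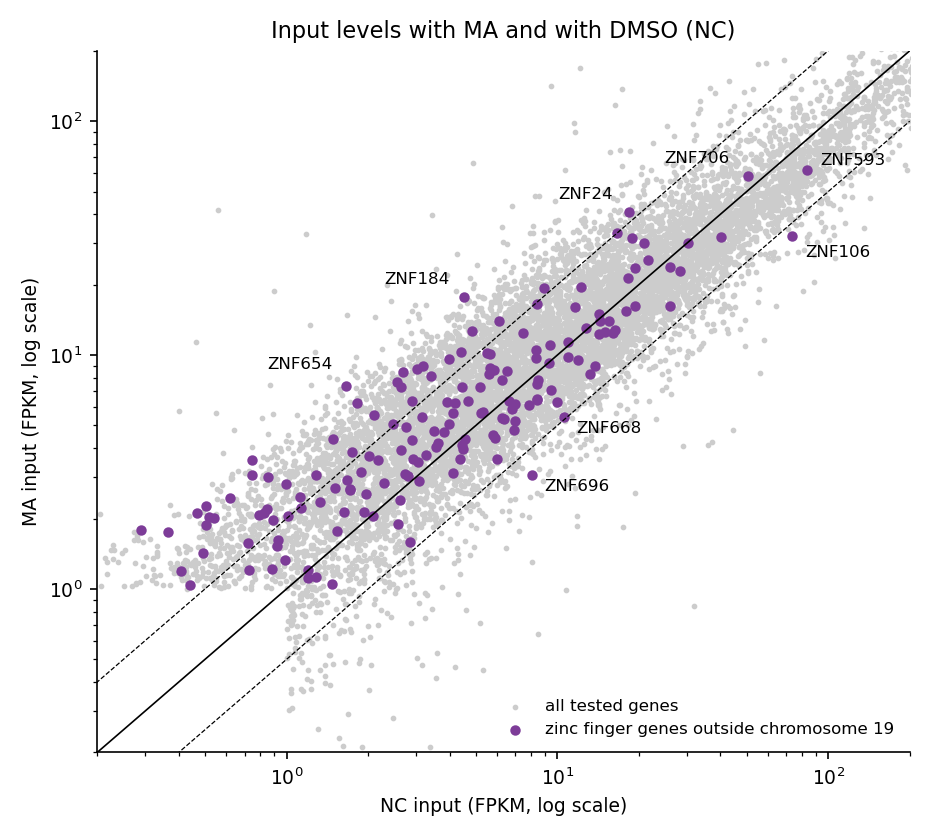
Input level of each compared gene in MA (vertical, FPKM, log scale) against NC (horizontal, FPKM, log scale), with all compared genes in grey and the 161 zinc finger genes outside chromosome 19 in purple. The solid line marks equal levels and the dashed lines a 2-fold ratio without a pseudocount, genes outside the axes are not drawn, and ZNF184, ZNF654 and ZNF24 lie above the upper dashed line while ZNF106 and ZNF696 lie below the lower one.

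The 10 members with the highest differences lay under 20 FPKM in both inputs. ZNF184, a KRAB zinc finger gene in the histone gene region of chromosome 6, was at 17.7 FPKM in MA and 4.52 FPKM in NC, a log2 difference of 1.76. ZNF654 was at 7.41 FPKM in MA and 1.66 FPKM in NC (1.66). Its annotated span overlaps that of CGGBP1, and since strand in the counting is not given in the sources used here, reads of the pair cannot be told apart. ZNF484, a KRAB gene on chromosome 9, was at 3.55 FPKM in MA and 0.746 FPKM in NC (1.38). ZNF92, of a cluster of close paralogs on chromosome 7, was at 6.24 FPKM in MA and 1.82 FPKM in NC (1.36), and ZNF721 on chromosome 4 was at 8.45 FPKM in MA and 2.69 FPKM in NC (1.36). Both have near relatives with which reads may be shared, so their values are uncertain.

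The rest of the 10 highest were spread over chromosomes 5, 6, 7, 15 and X. ZNF300, a KRAB gene whose span overlaps that of IRGM, was at 7.70 FPKM in MA and 2.56 FPKM in NC (log2 difference 1.29). ZNF322 was at 8.76 FPKM in MA and 3.02 FPKM in NC (1.28), and ZNF770 at 8.95 FPKM in MA and 3.19 FPKM in NC (1.25). ZNF674, one of several X-linked finger genes studied in intellectual disability, had the lowest NC level of the 10, with 3.07 FPKM in MA and 0.743 FPKM in NC (1.23). ZNF12, a KRAB gene, was at 12.6 FPKM in MA and 4.84 FPKM in NC (1.22). The highest of these levels in NC was that of ZNF12, and none of the 10 was among the most abundant members.

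At the other end, ZNF106 and ZNF696 were the 2 members lower by 2-fold or more. ZNF106, which encodes an RNA-binding protein needed by motor neurons in mice, was at 32.2 FPKM in MA and 73.7 FPKM in NC, a log2 difference of -1.17, and its span overlaps that of SNAP23. ZNF696 on chromosome 8 was at 3.08 FPKM in MA and 8.04 FPKM in NC (-1.15). ZNF668 on chromosome 16, a chromatin and DNA repair factor, was at 5.45 FPKM in MA and 10.6 FPKM in NC (-0.84), and its span overlaps that of ZNF646. The next lowest were smaller differences. ZNF511 was at 16.2 FPKM in MA and 26.0 FPKM in NC (-0.65), ZNF32 at 8.31 FPKM in MA and 13.2 FPKM in NC (-0.61) and ZNF688 at 3.58 FPKM in MA and 5.96 FPKM in NC (-0.60). ZNF341, which drives transcription of STAT3, was at 1.58 FPKM in MA and 2.86 FPKM in NC (-0.58). ZNF689 (-0.58), ZNF316 (-0.57) and ZNF395 (-0.46) completed the 10 lowest.

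Reads behind each value were recovered as the smallest whole numbers that give the deposited FPKM, with medians of 937 reads per member in MA and 663 in NC and minima of 67 and 31. From these, an exact 95% binomial interval of the log2 ratio without a pseudocount covers counting error only. The interval lay above 0 for 98 members and below 0 for 42. It lay beyond 2-fold on the higher side for 34 members and on the lower side for 2. The same counts over all compared genes are not given here, so these counts cannot be set against a background. For ZNF184 the log2 ratio was 1.97 (interval 1.71 to 2.25), for ZNF484 it was 2.25 (1.98 to 2.52) and for ZNF696 it was -1.38 (-1.58 to -1.19). Such intervals hold no variation between cultures.

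**Figure D2:**
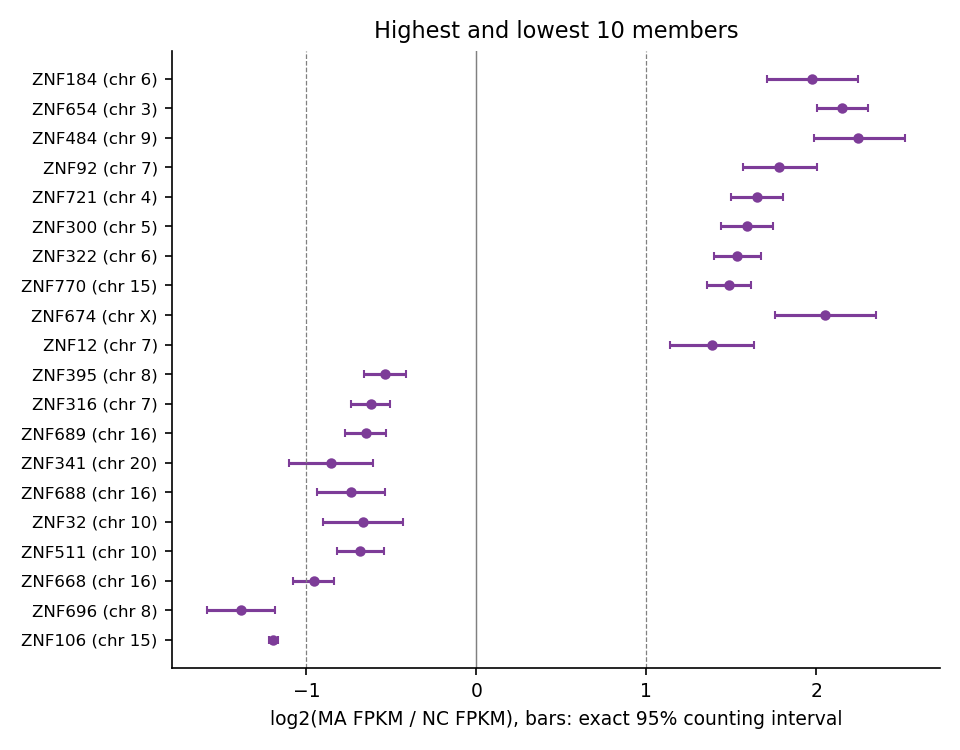
Log2 ratio of the MA to the NC FPKM, without a pseudocount, for the members with the 10 highest (upper rows) and 10 lowest (lower rows) differences, with exact 95% counting intervals as bars and a 2-fold ratio as dashed lines. All of the upper 10 intervals lie above 1, and of the lower 10 those of ZNF106 and ZNF696 lie below -1.

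Among the 10 most abundant members were genes with work outside DNA binding, and all but ZNF24 and ZNF106 were within 2-fold. ZNF593, whose yeast relative acts in assembly of the large ribosomal subunit, was the highest with 62.1 FPKM in MA and 83.8 FPKM in NC (log2 difference -0.43). ZNF706, a short finger protein that represses Klf4 in mouse embryonic stem cells, was at 58.5 FPKM in MA and 50.4 FPKM in NC (0.21). ZNF24, a SCAN domain factor that represses VEGFA, was higher, with 41.0 FPKM in MA and 18.4 FPKM in NC (1.11). ZNF330, a nucleolar protein, was at 31.7 FPKM in MA and 18.9 FPKM in NC (0.72), and ZNF410, known as an activator of CHD4, at 30.0 FPKM in MA and 20.9 FPKM in NC (0.51). ZNF768 at 22.8 FPKM in MA and 28.3 FPKM in NC (-0.30) and ZNF672 at 23.9 FPKM in MA and 26.1 FPKM in NC (-0.12) differed by less.

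Of 6 members with roles in RNA and ribosomes, none was higher or lower by 2-fold, where 10.3% of all genes were higher and 2.98% lower. The median log2 difference of the 6 was 0.04. ZNF598, the ubiquitin ligase that marks collided ribosomes, was at 32.1 FPKM in MA and 40.3 FPKM in NC (-0.32). ZNF622, a maturation factor of the large ribosomal subunit, was at 30.0 FPKM in MA and 30.4 FPKM in NC (-0.02, but 0.06 after rescaling to TPM). ZNF638, an RNA- and DNA-binding protein that works with the HUSH complex in silencing of retroviral DNA, was the highest of the 6, with 16.6 FPKM in MA and 8.43 FPKM in NC (0.90, and 1.02 after rescaling to TPM). ZNF326, which links RNA polymerase elongation to splicing, was at 7.29 FPKM in MA and 4.45 FPKM in NC (0.61). ZNF593 and ZNF346, a double-stranded RNA binder (0.09, but -0.02 with the median gene at 0), completed the group.

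Chromatin adaptors were counted next, and 18 of the 20 listed genes were members. Of these 18, 3 were higher by 2-fold (16.7%) and 12 were above 0 (66.7%), shares close to the 15.5% and 67.7% of all compared members, beside 10.3% and 56.7% of all genes. None was lower by 2-fold, and the median was 0.39, or 0.27 without ZNF711, which entered through the MA input alone. ZNF711, which sits at promoters with the demethylase PHF8, was at 2.11 FPKM in MA and 0.467 FPKM in NC (log2 difference 1.08). ZNF148 was at 5.55 FPKM in MA and 2.10 FPKM in NC (1.08), and ZNF644, a partner of the H3K9 methyltransferases EHMT1 and EHMT2, at 10.3 FPKM in MA and 4.42 FPKM in NC (1.06). With the median gene at 0 all 3 lay just under 2-fold, at 0.97, 0.97 and 0.95.

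The Z3 complex, which ZNF592, ZNF687 and ZNF532 form with ZMYND8, had all of these transcripts within 2-fold. ZNF592 was at 7.81 FPKM in MA and 8.47 FPKM in NC (log2 difference -0.10), ZNF687 at 11.4 FPKM in MA and 10.9 FPKM in NC (0.05, but -0.06 with the median gene at 0) and ZNF532 at 23.6 FPKM in MA and 19.4 FPKM in NC (0.27). ZNF217, a CoREST-associated oncogene, was at 19.6 FPKM in MA and 12.3 FPKM in NC (0.63). ZNF143, a promoter factor tied to chromatin loops, was at 5.45 FPKM in MA and 3.17 FPKM in NC (0.63), ZNF281 at 12.5 FPKM in MA and 7.45 FPKM in NC (0.67) and ZNF131 at 10.2 FPKM in MA and 5.49 FPKM in NC (0.79). ZNF445, a KRAB protein that protects imprints, was at 3.16 FPKM in MA and 1.89 FPKM in NC (0.53), and ZNF335, of an H3K4 methyltransferase complex, at 21.3 FPKM in MA and 18.2 FPKM in NC (0.22). ZNF263 (-0.29), ZNF219 (-0.20), ZNF516 (-0.15) and ZNF618 (-0.06) were below 0, as was ZNF668.

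Of 3 members with roles in mitosis and genome maintenance, 1 was higher by 2-fold (33.3%, against 10.3% of all genes). ZNF451, a SUMO ligase, was at 7.28 FPKM in MA and 2.64 FPKM in NC (log2 difference 1.19). ZNF830 was at 5.65 FPKM in MA and 4.10 FPKM in NC (0.38), and ZNF207 (BUGZ), which loads the checkpoint protein BUB3 at kinetochores, at 13.04 FPKM in MA and 12.8 FPKM in NC (0.03, but -0.09 with the median gene at 0).

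The table annotates 79 members to the KEGG map of herpes simplex virus 1 infection, where KEGG files many KRAB zinc finger genes. Of the 64 that were compared, 9 were higher by 2-fold (14.1%, against 10.3% of all genes), none was lower, 49 were above 0 (76.6%, against 56.7%) and the median log2 difference was 0.40. Among them 14 entered through the MA input alone. Of the other 50, 5 were higher by 2-fold, a share close to the 9.9% of all genes so filtered. The median of these 50 was 0.26, against 0.09 over all genes so filtered. The 97 members outside the map had a median of 0.22, with 16 higher and 2 lower by 2-fold. On chromosome 19, 34 of 158 compared zinc finger genes were higher by 2-fold, none was lower and the median was 0.62, and 56 of the 158 were under 1 FPKM in NC. Those genes were also lower in level, with medians of 3.11 FPKM in MA and 1.46 FPKM in NC, and whether level accounts for any of the gap was not tested.

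The machinery that KRAB domains recruit was spread in both directions. Of 21 compared cofactor and heterochromatin genes, 3 were higher by 2-fold (14.3%, against 10.3% of all genes) and 2 lower (9.52%, against 2.98%). Their median log2 difference was -0.02. TRIM28, the corepressor that KRAB domains bind, was at 71.3 FPKM in MA and 150.6 FPKM in NC (-1.07), and the deacetylase HDAC1 at 27.0 FPKM in MA and 56.1 FPKM in NC (-1.03). On the higher side stood the chromatin remodeller ATRX, at 6.41 FPKM in MA and 2.19 FPKM in NC (1.21), and TASOR, a HUSH subunit, at 19.6 FPKM in MA and 8.77 FPKM in NC (1.07). ATF7IP, the SETDB1 partner, was named after its values were seen and had 14.2 FPKM in MA and 6.27 FPKM in NC (1.06). Among relatives by symbol, 34 ZBTB genes had a median of 0.34 with 5 higher (14.7%) and 1 lower (2.94%) by 2-fold. The 11 ZSCAN genes had one of 0.65 with 2 higher (18.2%), and 6 ZKSCAN genes one of 0.25 with 1 higher (16.7%).

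By chromosome, members on 6, 9 and X had the highest medians and those on 10 and 16 were among the lowest. On chromosome 6, 5 of 7 compared members were higher by 2-fold, where 9.98% of all 531 compared genes of the chromosome were. The members' median log2 difference was 1.12, where those 531 genes had a median of 0.17. Of the 7, 2 entered through the MA input alone, and of the other 5, 3 were higher by 2-fold and the median was 1.19. On chromosome 9 the 6 members had a median of 0.89, against 0.06 over all genes there, and the 4 at 1 FPKM or more in both inputs one of 0.53. The 8 members on X had a median of 0.78 and all genes there one of 0.15, but 5 of the 8 entered through the MA input alone. The other 3 had a median of 0.13, and the only X member that reached 5 FPKM stood at -0.19. On chromosome 16, which held most members, 10 of 24 were above 0 and the median was -0.10 (-0.29 for the 21 at 1 FPKM or more in both inputs), beside -0.17 over all 488 compared genes of that chromosome. Chromosome 10 had 5 members with a median of -0.27 (-0.44 for the 4 at 1 FPKM or more in both inputs) and all genes one of 0.23, and those 5 had a shorter median recovered length, 1618 bases, than the chromosome's genes, 4032 bases.

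**Figure D3:**
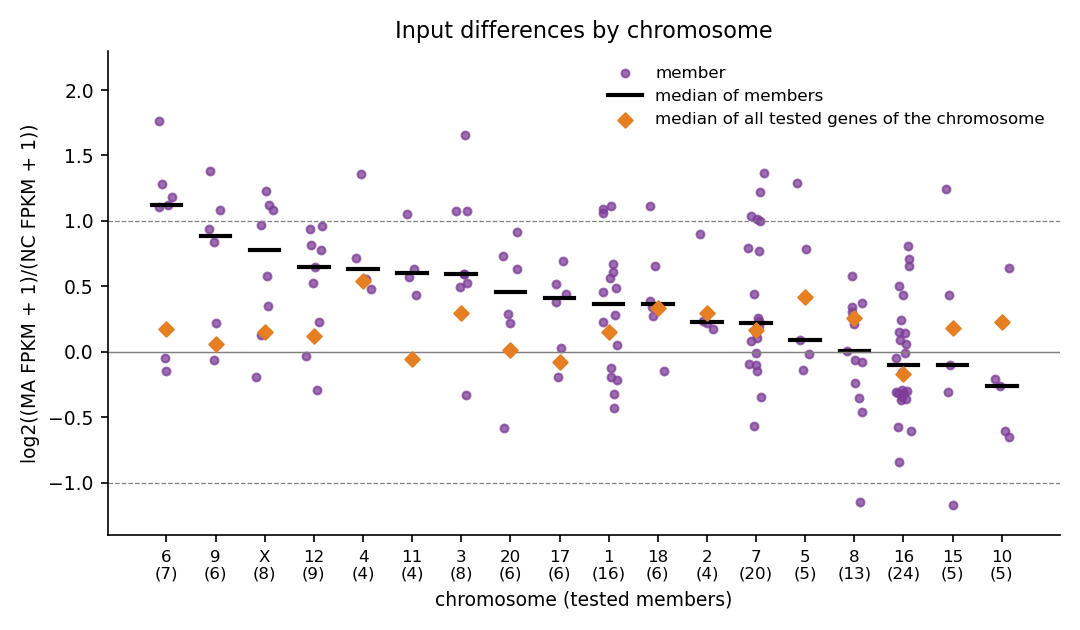
Log2 difference of the input level, log2((MA FPKM + 1)/(NC FPKM + 1)), for each compared member (points) on the chromosomes with 4 or more, whose number is in parentheses, with the members' median (bar) and the median of all compared genes of that chromosome (diamond). Members' medians run from 1.12 on chromosome 6 to -0.27 on chromosome 10, and dashed lines mark 2-fold.

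Members also lay in clusters, joined where the next member's peak lay within 1 Mb. The 12 members at 30.4 to 31.9 Mb of chromosome 16 had a median log2 difference of -0.31, with 9 of 12 below 0, and they included ZNF668, ZNF688, ZNF689 and ZNF768. Of these 12, 2 entered through the MA input alone, and without them 1 of 10 was above 0 and the median was -0.33. In this cluster ZNF267, named after its values were seen, was the highest, with 5.07 FPKM in MA and 2.46 FPKM in NC (0.81). The cluster at 64.5 to 65.4 Mb of chromosome 7 had 4 compared members with a median of 1.01, but 3 of them were under 1 FPKM in NC and so above 0 by the filter. These were ZNF92, ZNF107 (2.20 FPKM in MA and 0.846 FPKM in NC) and, named after their values were seen, ZNF680 (1.75 FPKM in MA and 0.364 FPKM in NC) and ZNF138 (2.03 FPKM in MA and 0.516 FPKM in NC). ZNF92 alone reached 1 FPKM in both inputs. They are close paralogs, so reads may be shared among them and the 4 values are not independent. The 5 compared members at 132.9 to 133.2 Mb of chromosome 12 had a median of 0.78, and the 3 of them at 1 FPKM or more in both inputs were all above 0, with a median of 0.65. The 8 members at 149.1 to 150.4 Mb of chromosome 7 had a median of 0.09.

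Over all genes, those of greater recovered length were more often higher with MA, and among members the grouping by recovered length was uncertain. Across the 161 members, Spearman's rho between the input difference and the recovered length was 0.16, and across 10526 genes of the table it was 0.20. With all genes cut into 3 equal groups by length, the short group had 32 members. Of these 3 were higher by 2-fold (9.38%) and 1 was lower, where 6.67% of all genes in that group were higher and 3.7% lower. In the middle group 10 of 64 were higher (15.6%) and none was lower, against 11.3% and 2.99%. In the long group 12 of 65 were higher (18.5%) and 1 was lower, against 13.1% and 2.25%. Above 0 were 71.9% of the short, 50% of the middle and 83.1% of the long members, with median log2 differences of 0.38, 0.01 and 0.48. Peaks of some short members covered more bases than the recovered length, 1895 against 849 in ZNF184 and 3434 against 1015 in ZNF12 (MA list). Both were among the 3 short members higher by 2-fold, and their true lengths are greater than recovered. No order of the groups among members can therefore be drawn. Genes are not independent replicates, the recovered length is a lower limit for some genes, and the part of length in the differences was not tested.

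Promoters are shown for 6 members because their differences lie at opposite ends while they hold the same motif. RefSeq windows (GRCh38.p14), from 250 bases before to 50 bases after a transcript start, were found for 159 of the 186 members, in 213 windows. Of 8 motifs searched on both strands, the ETS core CCGGAAG was in 33.3% of member windows, 18.4% of windows of all compared genes and 10.3% of all 35116 windows. The NF-Y box CCAAT was in 42.3% of member windows, against 35.6% and 34.6%, and the GC box GGGCGG in 60.6%, against 67.5% of windows of all compared genes. The rarer motifs are given as member windows against windows of all compared genes. The ZNF143 site was in 1.88% against 0.53%, the cAMP element in 4.23% against 3.04% and the TATA box in 6.10% against 5.74%. The YY1 core was in 6.57% against 7.67% and the E-box in 7.04% against 9.75%. The 56 compared members with the ETS core had a median log2 difference of 0.43, and the 79 without it 0.23. For the NF-Y box the medians were 0.54 with and 0.22 without, and for the GC box 0.28 with and 0.43 without. Only 4 compared members held the ZNF143 site, with medians of 0.84 with and 0.34 without. For the TATA box they were 0.43 with and 0.34 without. Lower with the motif were the medians for the cAMP element (0.22 and 0.37), the YY1 core (0.15 and 0.37) and the E-box (0.27 and 0.37). The part of these motifs in the differences was not tested. Capitals mark CCGGAAG or its reverse complement, each sequence is read 5′ to 3′ on the gene's strand, and a match is a description, not a site.
ZNF184: ctcgtaacgaCCGGAAGtgaccgttga
ZNF92: gacagcacagCTTCCGGgatttggcgg
ZNF12: gggaggcggaCTTCCGGtgcattcctg
ZNF668: cgcagacacaCTTCCGGcgctaagttc
ZNF688: cagaaggcacCTTCCGGgtcccttaac
ZNF316: ccccgcgtgaCCGGAAGttcctccccc
These lie at chr6:27473114-27473140 (minus strand), chr7:65373821-65373847 (plus), chr7:6707000-6707026 (minus), chr16:31074303-31074329 (minus), chr16:30571868-30571894 (minus) and chr7:6637257-6637283 (plus). The match starts 25, 24 and 69 bases before the transcript start in ZNF184, ZNF92 and ZNF12, which were among the highest 10 with MA. It starts 79, 170 and 51 bases before it in ZNF668, ZNF688 and ZNF316, which were among the lowest 10.

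The m6A lists held 493 member peaks in MA, in 177 genes, and 572 in NC, in 180 genes. The peaks were on average longer in MA, with a mean exonic length of 565 bases, against 478 bases in NC. They covered 279 kb in MA and 274 kb in NC. Peaks were also longer in MA over all genes with a peak, with means of 432 bases in MA and 398 bases in NC. Those covered 8557 kb in MA and 8714 kb in NC. Chromosome 19 zinc finger genes had means of 481 bases in MA and 388 bases in NC. More peaks in MA were found for 47 members (25.3%) and more in NC for 85 (45.7%), while 54 (29.0%) had equal numbers. Over all 9979 genes with a peak these shares were 23%, 36.6% and 40.4%, so a tilt to NC was present in the lists as a whole, which held 19787 peaks of table genes in MA and 21903 in NC. In 33 members the NC list had more peaks and the MA list more covered length, a count for which no share over all genes is given here. The authors' fold enrichment of RIP over input, which ranks peaks within a list only, had a median of 4.21 over member peaks in MA, where all peaks of genes in that list had 3.07. In NC the medians were 4.61 for member peaks and 3.57 for all. Peaks of chromosome 19 zinc finger genes had medians of 4.33 in MA and 5.00 in NC. Peaks numbered 0.510 per kb of recovered length in MA and 0.594 in NC for members, and 0.452 and 0.486 for all genes with a peak. For chromosome 19 zinc finger genes they numbered 0.606 in MA and 0.669 in NC. Recovered length falls short for some genes, so these densities may be too high.

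Both lists held peaks in 171 of the 186 members (91.9%, exact 95% interval 87.0 to 95.4), where 84.3% of all 9979 genes with a peak had them in both. Of the 184 chromosome 19 zinc finger genes with a peak, 94.6% had them in both. Peaks in MA alone were found for 6 members (3.23%, against 5.69% of all genes) and peaks in NC alone for 9 (4.84%, against 9.98%). Membership rested on a single peak for 8 members, whose fold enrichments ran from 2.8 to 8, and of the 68 genes of the name pattern with no peak 5 reached 1 FPKM, with median levels of 2.29 FPKM in MA and 0.764 FPKM in NC. ZNF711 had 3 peaks in MA, with fold enrichments of 12.0, 7.50 and 4.71, and none in NC, where its input level was 0.467 FPKM. ZNF143 had 2 peaks in MA, with fold enrichments of 2.50 and 2.13, and none in NC. ZNF219 and ZNF692 were the members at 5 FPKM or more in both inputs with peaks in NC alone. ZNF219, a partner of SOX9, was at 15.5 FPKM in MA and 17.9 FPKM in NC and had 1 peak in the 3' UTR, with a fold enrichment of 3.15. ZNF692 was at 12.8 FPKM in MA and 16.3 FPKM in NC and had 2 peaks, of fold enrichment 10.0 in the 5' UTR and 1.67 in the 3' UTR. A peak that is not listed can be one that missed the caller's threshold, and the peak caller is not given in the sources used here.

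By position, 410 of 492 member regions in MA overlapped a region of the NC list (83.3%, exact 95% interval 79.7 to 86.5), where 79.6% of all MA regions did. Of 572 member regions in NC, 444 overlapped one of the MA list (77.6%, interval 74.0 to 81.0), where 73.8% of all NC regions did. Overlap of 1 base on the same strand was enough, introns included. In 74 of the 171 members with peaks in both lists every peak had a partner, and in 5 none had. The same counts over all genes with peaks in both lists are not given here. Member peaks with no partner were narrower, with a median exonic length of 200 bases in either list, against 449 bases in MA and 422.5 bases in NC for those with one. Their median fold enrichment was 3.5 in MA and 3.04 in NC, against 4.49 and 5.00 for those with a partner. The same held over all peaks. There the median lengths without and with a partner were 200 and 351 bases in MA and 199 and 350 bases in NC. The median fold enrichments were 2.53 and 3.25 in MA and 3.00 and 3.90 in NC. A wider peak meets a rule of 1 base more easily, and the part of width was not tested.

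The annotated feature of member peaks was most often the 3' UTR or a coding exon. In MA 43.0% of member peaks were in the 3' UTR (exact 95% interval 38.6 to 47.5) and in NC 37.8% (33.8 to 41.9), where all peaks had 42.9% in MA and 42.2% in NC. Exons held 36.3% in MA (32.1 to 40.7) and 40.6% in NC (36.5 to 44.7), and the intervals of MA and NC overlap for both features. Over all peaks, exons held 34.0% in MA and 33.8% in NC. The 5' UTR held 15.4% of member peaks in MA and 14.9% in NC, beside 14.9% and 14.4% of all peaks. The stop codon held 3.04% in MA and 2.80% in NC, beside 3.45% and 3.54% of all peaks. The start codon held 2.23% of member peaks in MA (1.12 to 3.96) and 4.02% in NC (2.57 to 5.97), where all peaks had 4.78% and 6.06%. Chromosome 19 zinc finger genes had more of their peaks in exons, 44.6% in MA and 48.4% in NC, and fewer at start codons, 0.818% in MA and 1.70% in NC.

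**Figure D4:**
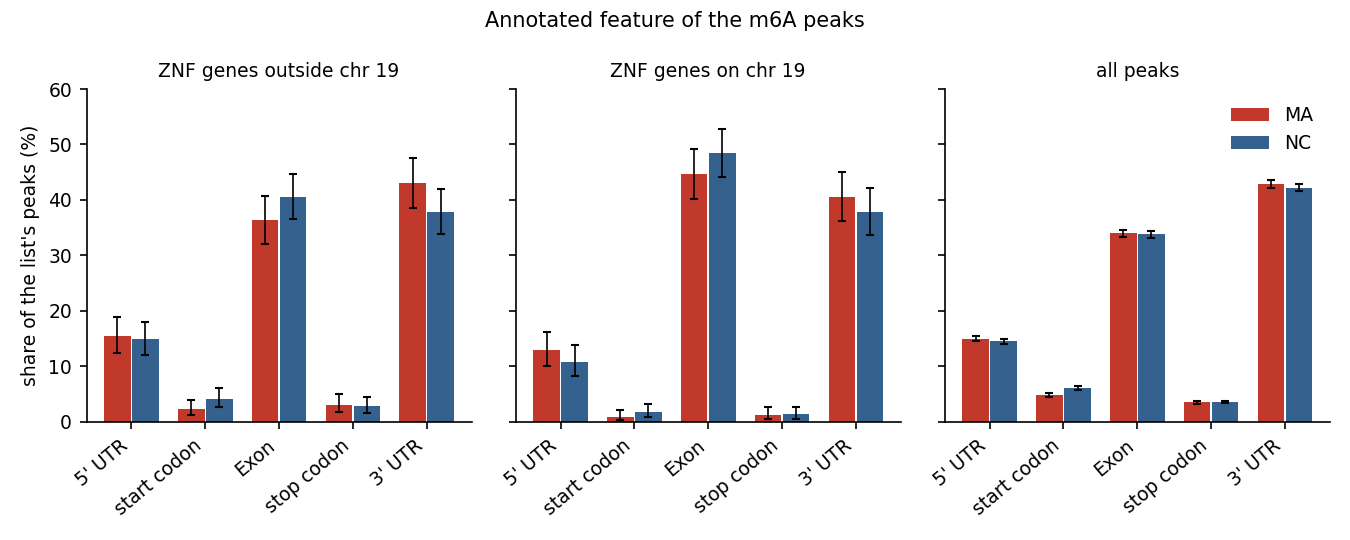
Share of peaks (%) by the authors' annotated feature in the MA list (red) and the NC list (blue), for zinc finger genes outside chromosome 19, those on chromosome 19 and all peaks, with exact 95% binomial intervals as bars. Among members, 43.0% of MA peaks and 37.8% of NC peaks were in the 3' UTR, and 2.23% and 4.02% were at the start codon.

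The members with the most peaks differed in which list held more. ZNF407 had 18 peaks in MA and 13 in NC, covering 4359 and 4355 bases, at an input level of only 1.52 FPKM in MA and 0.926 FPKM in NC. ZNF618 had 10 peaks in MA and 9 in NC, and ZNF516 9 in MA and 7 in NC. ZNF107 had 10 peaks in MA and 7 in NC, covering 3598 bases in MA and 1452 bases in NC. ZNF292, a large growth suppressor and neurodevelopmental gene, had 7 peaks in MA and 11 in NC, and their length was 6249 bases in MA and 3704 bases in NC. Over the members, Spearman's rho between the peaks of both lists and the recovered length was 0.48, and between the difference in peak number and the input difference it was 0.05. Members higher by 2-fold with MA held 61 peaks in MA and 82 in NC, members between 0 and 2-fold higher held 248 in MA and 269 in NC, and members below 0 held 130 in MA and 165 in NC. All 3 groups had fewer peaks in MA, as had the list as a whole.

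Fewer peaks did not always mean less covered transcript. ZNF721 had 2 peaks in MA and 6 in NC, yet its peaks covered 3778 bases in MA and 2242 bases in NC. A single MA peak of 3579 bases, at 440833 to 444411 of chromosome 4 on the minus strand and annotated to the 3' UTR, spanned all 6 NC peaks, 5 of which were annotated as exon. ZNF24 had 4 peaks in MA and 8 in NC, covering 1893 bases in MA and 2443 bases in NC, and 3 of the NC peaks, all in the 3' UTR, had no partner. ZNF687 had 1 peak in MA and 5 in NC. The MA peak of 2148 exonic bases and the longest NC peak of 1948 bases lay at the same place, and the other 4 NC peaks were 151 to 201 bases long. ZNF142 had 6 peaks in MA and 11 in NC. Its NC peak at 218642136 to 218643134 of chromosome 2, in an exon, had a fold enrichment of 32.0, the highest of all member peaks in that list, and an MA peak of 1749 bases with a fold enrichment of 5.00 started at the same base.

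**Figure D5:**
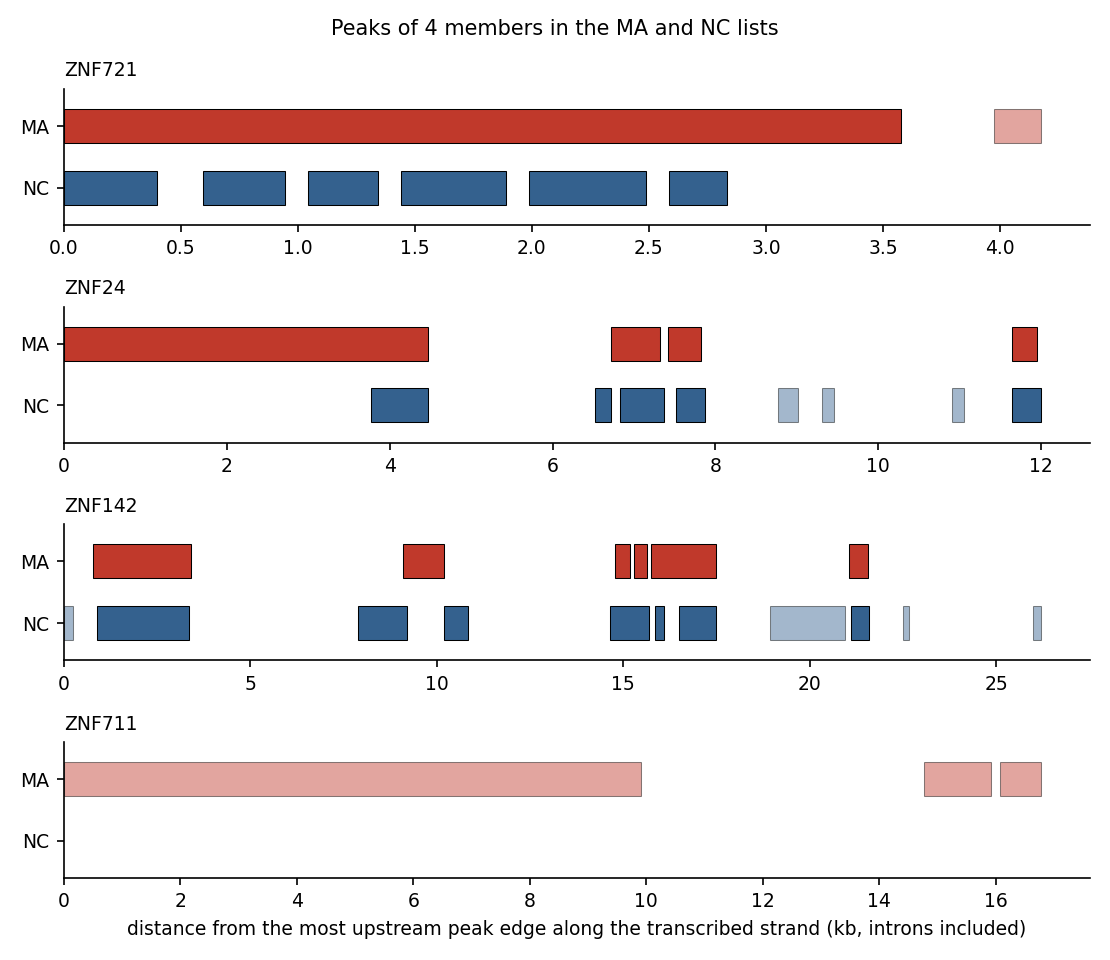
Peaks of ZNF721, ZNF24, ZNF142 and ZNF711 in the MA list (upper row, red) and the NC list (lower row, blue), drawn from start to end with introns by distance in kb from the most upstream peak edge along the transcribed strand. Pale boxes have no overlapping peak in the other list, the single long MA peak of ZNF721 spans its 6 NC peaks, and ZNF711 has 3 MA peaks and no NC peak.

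Within each list the 5 highest fold enrichments were in genes under 5 FPKM. In MA the top member peaks were those of ZNF81 (18 and 16), ZNF182 (16), ZNF292 (16) and ZNF41 (13). Peaks of ZNF124 and ZNF624, named after their values were seen, tied with that of ZNF41. The input levels of these genes in MA ran from 0.677 FPKM in ZNF124 to 2.27 FPKM in ZNF292. ZNF41 and ZNF81 lie in the same part of chromosome X, and both have been studied in X-linked intellectual disability. In NC the top peaks were those of ZNF142, ZNF292 (28), ZNF200 (23), ZNF407 (20) and ZNF84 (18), with a peak of ZNF268, named after its values were seen, tied at 18. The ZNF292 peak with the value of 28 lay at 87259701 to 87259900 of chromosome 6 in an exon, inside an MA peak of 1500 bases with a fold enrichment of 6. A ratio over few input reads is imprecise, and the reads behind each peak are not in the lists used here.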

How the data were processed

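The authors' deposited table gives FPKM for 1 MA and 1 NC input library. Their deposited peak lists give position, exonic length, feature, p-value, false discovery rate and fold enrichment (a ratio of RIP over input), per the file headers. The genome build was GRCh38.p13, per the submitters' processing notes, which list HISAT, HISAT2, Trimmomatic, ChIPseeker and deepTools with no version. Nothing in the sources used here gives the read counter, its use of strand, the gene annotation or the peak caller. Over the member peaks the lowest fold enrichment was 1.5 and the highest false discovery rate 0.198. Repeated rows (85 of 20028 in MA and 113 of 22199 in NC) were counted a single time, and starts were raised by 1.

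Members and gene lists were chosen with earlier results of these data known. The difference of a gene was log2((MA FPKM + 1)/(NC FPKM + 1)). It was taken where either input reached 1 FPKM, and counted at 2-fold. Depth was recovered from the FPKM values: whole reads fitted 99.7% of the 13055 genes with a value in each input, and 0.2% once the values had been moved. Recovered reads and lengths are the smallest that fit and can be a whole fraction of the true ones, which widens intervals. The recovery was tested on simulated data. Intervals are exact Clopper-Pearson and cover counting error only, since reads copied by PCR carry no molecular identifier and are not independent.

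Named genes were the 10 highest and 10 lowest differences, the 10 highest mean levels, the 10 with most peaks, the 5 top peaks of each list, members at 5 FPKM or more in both inputs with peaks in a single list, and the members of the 3 role lists. Touching peaks of 1 list and strand were merged to regions. RefSeq tables (GRCh38.p14) gave promoter windows, and overlapping protein-coding spans for 185 matched members, of which 43 overlapped another gene. Python 3.11.15, numpy 2.4.6, pandas 2.3.3, scipy 1.17.1 and matplotlib 3.10.9 were used. The alternatives tried were other pseudocounts, floors and scalings, equal peak numbers, higher fold enrichments, a false discovery rate of 0.05, single-exon peaks and an overlap of 50%.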

Additional observations from a re-analysis of the deposited data

How the results depend on the processing

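The members' median difference stayed above 0 in all 8 alternatives, between 0.17 and 0.39. No called difference of a named gene reversed, but these alternatives could not have reversed any. Pseudocounts and floors leave the sign of a gene unchanged, and both scalings moved the named genes by less than 2-fold. The lack of reversals is therefore no check of the results. With a pseudocount of 0.1, 42 members were higher by 2-fold (26.1%, against 17.0% of all genes). A pseudocount of 5 left 1 higher (0.62%, against 2.58%) and 1 lower (0.62%, against 1.46%). Under that pseudocount the members' share of higher genes was below that of all genes. A floor of 5 FPKM left 91 members, of which 16 were higher (17.6%, against 11.3%). Rescaling to TPM gave 40 higher (24.8%, against 17.0%), and the median gene at 0 gave 15 (9.32%, against 7.16%). Equal peak numbers gave 10 members with peaks in MA alone, and a fold enrichment of 3 or more gave 16 with peaks in NC alone. An overlap of 50% of both regions lowered the overlapping share to 47.8% in MA and 41.1% in NC, single-exon peaks to 77.4% in MA and 69.5% in NC, and equal peak numbers to 79.7% in MA. Among single-exon peaks the 3' UTR held 50.4% in MA and 45.2% in NC, the 5' UTR 11.0% in MA and the start codon 2.23% in NC, with peaks that cross introns left out. Shares over all genes, regions or peaks under these peak rules are not given here, so the values cannot be set against a background. The cause of these shifts was not tested. Of the other values for all members, 57 stayed within their limits. No paired analysis was possible because each treatment had 1 input and 1 RIP library. The lack of replicates is the main limit, and counting limits low genes, with 31 recovered reads for the lowest member in NC.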

Other observations

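The 25 members under 1 FPKM in both inputs still held 54 peaks in MA and 56 in NC, and 20 of them had peaks in both lists. ZNF197 was listed at 0.0344 FPKM in MA and 0.00704 FPKM in NC, with 11 and 2 recovered reads, yet had 6 peaks in MA and 7 in NC, which covered 4141 bases in MA and 4241 bases in NC. Its annotated span overlaps those of ZNF35 and the read-through gene ZNF660-ZNF197, and how the reads of the 3 genes were shared out was not tested. ZNF141, chosen after its values were seen, stood at 0.190 FPKM in MA and 0.0932 FPKM in NC and had 2 peaks in MA, with a top fold enrichment of 10.0, and none in NC.

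Covered peak length was greater in MA for 88 members, greater in NC for 94 and equal for 4, a closer split than that of peak numbers. In 13 members the MA list had more peaks while the NC list covered more length. The same counts over all genes with a peak are not given here, so these cannot be set against a background.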
